A study of Capra hircus with 90 samples.

Results

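SHOX2 (ENSCHIG00000016128), 1 gene of the 25144 in the count table, encodes a homeobox transcription factor, and its transcript was followed across 3 sites of the goat brainstem. The gene was chosen with earlier results of these data known: it is listed in the authors' deposited table for the nucleus of the solitary tract after 24 h of CO2, and it was picked for its levels across sites. Both of these are therefore given as descriptions, with no test. Its symbol was tied to its row of counts by an equal mean abundance, which matched 1 row within 1e-06 on the log2 scale.

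Homeobox proteins bind DNA and set the identity of cells in the embryo, and many stay active in adult neurons. In mice Shox2 shapes the proximal limb bones, holds the sinoatrial node of the heart in its pacemaker state, and marks excitatory spinal interneurons that take part in the locomotor rhythm. It is also transcribed in the mouse thalamus and hindbrain.

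Bulk RNA was read from punches of frozen brainstem from adult outbred female goats of at least 2 years (Alpine, Saanen, Toggenburg and others). The exposures were 3 h or 24 h in 6% inspired CO2, set against 24 h in room air, and 7 d in 6% CO2, set against 7 d in room air, with 6 goats each. Each of the 30 goats is taken to have given 3 punches, from equal numbers in the library names. That of the nucleus of the solitary tract (NTS) began at the obex and ended 2 mm rostral to it, that of the ventral respiratory column (VRC) covered 2 to 4 mm, with the pre-Bötzinger complex and the region of nucleus ambiguus in it, and that of the retrotrapezoid nucleus (RTN) covered 8 to 10 mm. A punch holds all cells of its disc of tissue, and in such bulk samples fewer cells of a type and less RNA per cell cannot be told apart. The 7 d groups were extracted and sequenced in a second batch, so batch and duration cannot be told apart between them and the others. The 90 libraries had 5456538 to 36756816 counts each. On the first principal component of the 18 NTS libraries of the first batch, computed without SHOX2 and holding 28.8% of the variance, 5 libraries lay on the side opposite to the other 13: numbers 5 and 6 after 3 h of CO2, number 5 after 24 h of CO2, and numbers 5 and 6 of 24 h room air. These 5 are the libraries with a positive score, and setting them aside was decided after the data were seen. Number 5 after 24 h of CO2 scored 15.1, between 40.5 for the next of the 5 and -9.67 for the nearest of the 13. Main NTS results are given with and without these 5. The 12 NTS libraries of the second batch were not part of that component.

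SHOX2 was lowest in the NTS, intermediate in the VRC and highest in the RTN, in room air and in CO2 alike. Values are CPM, counts scaled by library size and TMM factor. The NTS libraries ran from 0 to 27.3 CPM with a median of 0.262, the VRC libraries from 2.60 to 13.5 CPM with a median of 6.71, and the RTN libraries from 7.58 to 83.9 CPM with a median of 26.6 (n = 30 each). The counts behind them differ: every VRC or RTN library held at least 39 SHOX2 reads, whereas 20 of the 30 NTS libraries held fewer than 10. In 3 NTS libraries no read was counted, which allows up to 0.096 to 0.228 CPM at 3 counts, for counting error only. Most NTS values thus lie close to the detection limit, and 25 of 30 were under 1 CPM.

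**Figure D1:**
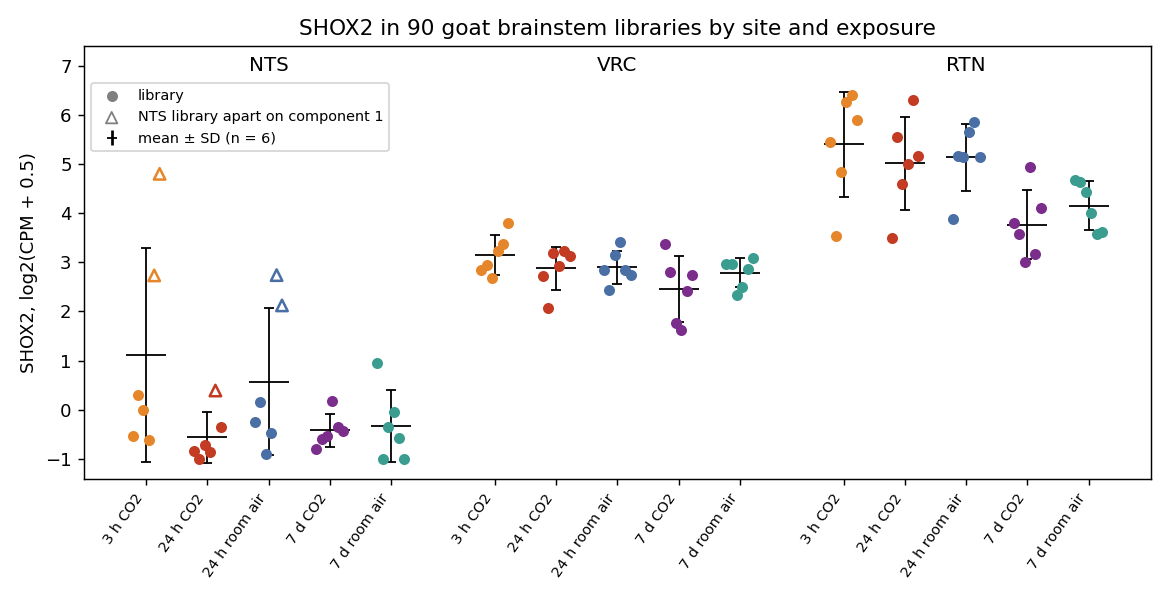
SHOX2 per library on the log2(CPM + 0.5) scale, grouped by site and exposure; bars are the mean ± SD of 6 libraries, and open triangles are the 5 NTS libraries that lay apart on the first component. The group means keep the order NTS, VRC, RTN in each exposure, and 4 of the triangles are the 4 highest NTS values.

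In the RTN SHOX2 averaged 50.2 ± 28.1 CPM after 3 h of CO2, 37.6 ± 23.1 after 24 h of CO2 and 37.6 ± 14.7 in 24 h room air (SD, n = 6 each). The RTN groups of the second batch averaged 14.6 ± 8.23 CPM after 7 d of CO2 and 18.2 ± 6.18 CPM in 7 d room air. All of these RTN groups overlap in their single values. Goats differed widely within a group: after 3 h of CO2 the RTN values were 11.1, 28.1, 43.4, 58.6, 76.5 and 83.9 CPM. The 12 RTN libraries of the second batch, from 7.58 to 30 CPM, lay low in the range of the 18 of the first batch, from 10.8 to 83.9 CPM, in CO2 and room air alike.

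The VRC was the most even site. SHOX2 averaged 8.65 ± 2.77 CPM there after 3 h of CO2, 7.12 ± 1.97 after 24 h of CO2 and 7.13 ± 1.84 in 24 h room air (SD, n = 6 each). In the second batch the VRC means were 5.47 ± 2.68 CPM after 7 d of CO2 and 6.51 ± 1.35 CPM in 7 d room air. The coefficient of variation was 32.8% over the 30 VRC libraries, against 68.4% in the RTN and 297% in the NTS. The shallowest library, number 4 of the VRC after 24 h of CO2, gave 7.11 CPM from 39 reads, inside its group's range of 3.72 to 8.88 CPM.

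In the NTS the group means were 5.84 ± 10.8 CPM after 3 h of CO2, 0.218 ± 0.306 after 24 h of CO2 and 1.87 ± 2.55 in 24 h room air (SD, n = 6 each). They were 0.265 ± 0.196 CPM after 7 d of CO2 and 0.394 ± 0.543 CPM in 7 d room air, and the room-air mean was 0.185 CPM without its number 1. The SDs of 4 of these 5 groups exceed their means. The order of the groups within the NTS moves with the libraries that lay apart. Without them the means were 0.396 ± 0.277 CPM after 3 h (n = 4), 0.0994 ± 0.108 CPM after 24 h of CO2 (n = 5) and 0.303 ± 0.244 CPM in 24 h room air (n = 4).

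Ordered by mean level, the 15 groups ran from the NTS to the VRC to the RTN, except that the NTS after 3 h of CO2, at 5.84 CPM, lay above the VRC after 7 d of CO2, at 5.47 CPM. Most neighbours in this order differed by less than the larger of their SDs, also where the highest VRC group (3 h of CO2, 8.65 CPM) met the lowest RTN group (7 d of CO2, 14.6 CPM). The step between the VRC after 7 d of CO2, at 5.47 ± 2.68 CPM, and the NTS in 24 h room air, at 1.87 ± 2.55 CPM, was wider than either SD, though the single values overlap. Between sites of the same exposure, the RTN libraries did not overlap the VRC libraries after 24 h of CO2, in 24 h room air or in 7 d room air. They overlapped after 3 h, where the lowest RTN value was 11.1 CPM and the highest VRC value 13.5 CPM, and after 7 d of CO2, where these were 7.58 and 9.83 CPM.

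Within single goats the order of the sites had 1 exception. SHOX2 was higher in the RTN than in the VRC of the same goat in 30 of 30 goats, by a mean log2 difference of 1.86 ± 0.91 (SD), a ratio of 3.63. Over all 17730 genes of the 90-library fit, 0.942% were higher in the RTN in all 30. The VRC was higher than the NTS in 29 of 30 goats, and 1.13% of genes were so in at least 29. The mean log2 difference of SHOX2 was 2.76 ± 1.28. RTN exceeded NTS in 30 of 30 goats, as did 0.496% of genes, and the SHOX2 difference averaged 4.62 ± 1.25. These differences are of log2(CPM + 0.5). Most NTS values lie under 1 CPM, so the added 0.5 limits the size of differences from the NTS. The full order, NTS below VRC below RTN, held in 29 of 30 goats. It was found in at least 29 goats for 4 genes, or 0.0226%, of which SHOX2 is the one that carries a symbol here.

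By the size of the mean difference SHOX2 ranked 5 of 17730 for RTN over NTS, 6 for VRC over NTS and 40 for RTN over VRC. These ranks describe a gene that was chosen for this pattern, and those over the NTS depend on the added 0.5. The exception to the order was goat 6 after 3 h of CO2, whose NTS, VRC and RTN held 27.3, 13.5 and 58.6 CPM. Without the 5 goats whose NTS library lay apart, the VRC was above the NTS in all of the other 25, by 3.18 ± 0.73 on the log2 scale. The RTN to VRC difference averaged 2.25 ± 0.91, 2.13 ± 1.01 and 2.24 ± 0.68 after 3 h of CO2, 24 h of CO2 and 24 h of room air. It averaged 1.31 ± 1.03 and 1.37 ± 0.61 in the second batch, after 7 d of CO2 and of room air.

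**Figure D2:**
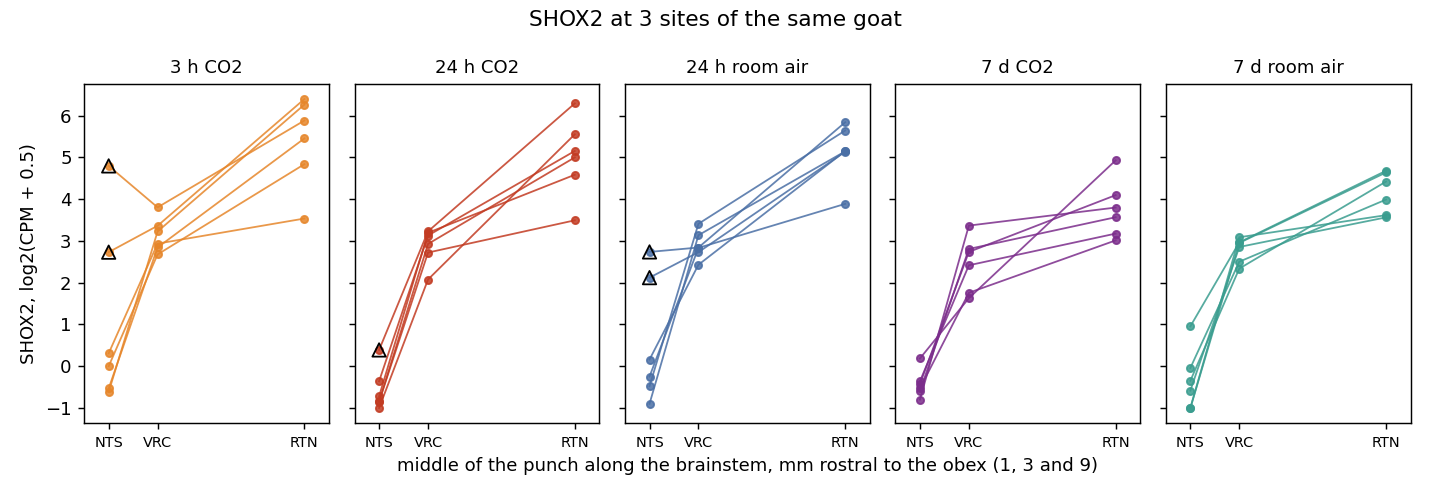
SHOX2 at the 3 sites of each goat, on the log2(CPM + 0.5) scale, against the middle of each punch in mm from the obex; each line is 1 goat, each panel 1 exposure with 6 goats, and triangles mark NTS libraries that lay apart. Lines climb from VRC to RTN in all 30 goats, and 1 line, of goat 6 after 3 h of CO2, falls from NTS to VRC.

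Site accounted for 78.9% of the sum of squares of SHOX2 on the log2 scale, against a median of 8.51% over 14272 genes with a mean of at least 1 CPM. Exposure accounted for 4.64% and the combination of site and exposure for 1.70%, against medians of 9.63% and 8.00%. The 5 exposures include the 7 d groups of the second batch, so these shares and medians hold batch as well as CO2 and duration. The goat took 7.00%, against a median of 33.2%. A level that differs so much between sites leaves small shares for the rest, and these shares carry no test.

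The comparisons of CO2 with room air asked whether the exposure shifted SHOX2 at a site. The 6 comparisons in the VRC and RTN use no NTS library, and in 0 of them did SHOX2 pass an adjusted p of 0.05 by edgeR. The unadjusted p was under 0.05 in 0 of them too, and DESeq2 and limma voom likewise called 0. In the VRC the values after 3 h of CO2 ran from 5.90 to 13.5 CPM with a median of 8.01, and in room air from 4.89 to 10.1 with a median of 6.66. The log2 fold change was 0.27 (SE 0.22, adjusted p = 0.614), in a comparison where 0.0130% of genes passed. After 24 h of CO2 the VRC ran from 3.72 to 8.88 CPM, against the same room-air libraries, with a log2 fold change of 0.01 (SE 0.23, edgeR adjusted p = 0.995). That comparison had 0.817% of genes past the threshold. After 7 d of CO2 the VRC ran from 2.60 to 9.83 CPM, against 4.56 to 8.01 CPM in 7 d room air. Its log2 fold change was -0.24 (SE 0.28, edgeR adjusted p = 0.870), with 0% of genes called (996 at an unadjusted p under 0.05, and 2 called by DESeq2 and 0 by limma voom).

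In the RTN the 3 h values ran from 11.1 to 83.9 CPM with a median of 51.0 in CO2, against 14.3 to 56.9 CPM with a median of 35.0 in room air, and the groups overlap. The log2 fold change was 0.43 (SE 0.47, edgeR adjusted p = 0.899), where 0.0129% of genes passed. The 24 h values had a median of 33.3 CPM in CO2 and 35.0 CPM in room air, and the log2 fold change was 0.02 (SE 0.48, edgeR adjusted p = 0.997). The share of genes called there was 0% (edgeR), while 1001 had an unadjusted p under 0.05, DESeq2 called 9 and limma voom 0. After 7 d the RTN median was 12.4 CPM in CO2 and 18.2 CPM in room air, with overlapping values and a log2 fold change of -0.33 (SE 0.32, edgeR adjusted p = 0.999). The share called was again 0% (edgeR), while 499 genes had an unadjusted p under 0.05, DESeq2 called 2 and limma voom 0. The comparisons at 3 h and 24 h share their room-air libraries. With SEs of 0.32 to 0.48, the RTN comparisons could not resolve changes of that size on the log2 scale.

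**Figure D3:**
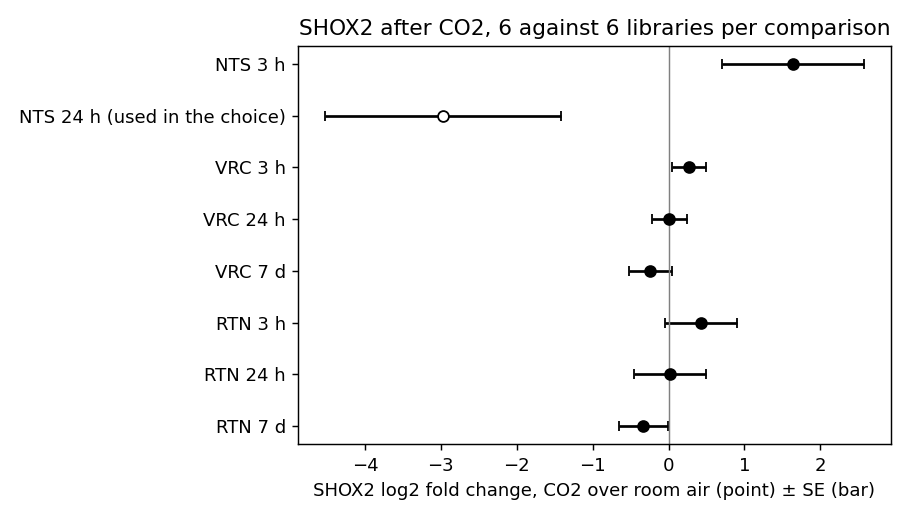
Log2 fold change of SHOX2, CO2 over room air (points), with the SE of the edgeR fit (bars), for the 8 comparisons whose filter kept the gene. Values in the VRC and RTN lie within 0.43 of 0, both NTS values have wider bars, and the open point is the comparison through which the gene was chosen, which shares its room-air libraries with the NTS at 3 h.

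In the NTS after 3 h of CO2 the SHOX2 values were 0.153, 0.191, 0.500, 0.739, 6.14 and 27.3 CPM, against 0.0359, 0.218, 0.343, 0.617, 3.85 and 6.17 CPM in room air. Both groups hold 4 libraries under 1 CPM and 2 far above it, and the 2 high ones of each are numbers 5 and 6. These room-air libraries are also those of the comparison through which SHOX2 was chosen, so the 3 h values are a description, with no test. The log2 fold change was 1.64 (SE 0.93) and turned to -0.25 without number 6 of the 3 h group. Without the 5 libraries that lay apart it was 0.41. The share of genes called in this comparison was 0% (edgeR), while 1053 had an unadjusted p under 0.05, DESeq2 called 12 and limma voom 1. A block for the replicate number gave 3 called genes and a log2 fold change of 1.25 for SHOX2.

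After 24 h of CO2 the NTS values were 0, 0.0542, 0.0571, 0.106, 0.280 and 0.811 CPM, against the room-air values just given. This is the comparison through which SHOX2 was selected. The authors' deposited table gives it a log2 fold change of -3.02 with an adjusted p of 0.0195. The refit with the NTS libraries of the first batch gave -2.97 (SE 1.55), and -1.37 (SE 0.81) without the 5 libraries that lay apart. The 2 room-air libraries at 3.85 and 6.17 CPM are among those 5, and leaving out the one at 6.17 CPM alone gave -1.88. The share of genes called was 0% (edgeR), while 1591 had an unadjusted p under 0.05, DESeq2 called 191 and limma voom 273. After 7 d the NTS held 0.0747 to 0.638 CPM in CO2 and 0 to 1.44 CPM in room air. The filter on low counts left SHOX2 out of that fit, and an exact two-sided permutation test gave a difference of -0.08 on the log2(CPM + 0.5) scale (p = 0.833, n = 6 each). There edgeR called 0.00653% of genes.

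The lists of genes known to act beside SHOX2 could be followed only where the authors' tables supply a symbol. Of 44 hindbrain and spinal transcription factors and of 17 genes that act with SHOX2 in mouse heart, limb or neurons, 0 carry a linked symbol, so they are not analysed here, nor are the defining marker genes of the 3 nuclei. Of 29 genes listed under transmitters and peptides 4 do: the peptide genes GRP and NPFF, the receptor subunit GABRB2 and the filament gene PRPH. The cell markers with a symbol are PRPH for neurons (1 of 9), OLIG1 and OLIG2 for oligodendrocytes (2 of 6), AIF1 for microglia (1 of 5), TTR for choroid plexus (1 of 4) and HBQ1 and HEMGN for blood (2 of 5). Astrocytes, oligodendrocyte precursors, vessels and meninges have 0.

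PRPH encodes peripherin, an intermediate filament of motor and sensory neurons with axons in peripheral nerves. The NTS libraries fell into 2 sets by it. In 10 of them PRPH lay between 35.3 and 1090 CPM, and in the other 20 between 1.91 and 6.03 CPM. SHOX2 ran from 0.191 to 27.3 CPM in those 10, with a median of 1.13, and from 0 to 0.739 CPM in the other 20, with a median of 0.165. This split was seen after the values were known and has no test. PRPH is, like SHOX2, listed by the authors as lower in the NTS after 24 h of CO2, which favours such a pairing. The 10 hold all 5 libraries that lay apart and 5 of the second batch, where the highest SHOX2 value of 7 d room air, 1.44 CPM, stands beside 122 CPM of PRPH.

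**Figure D4:**
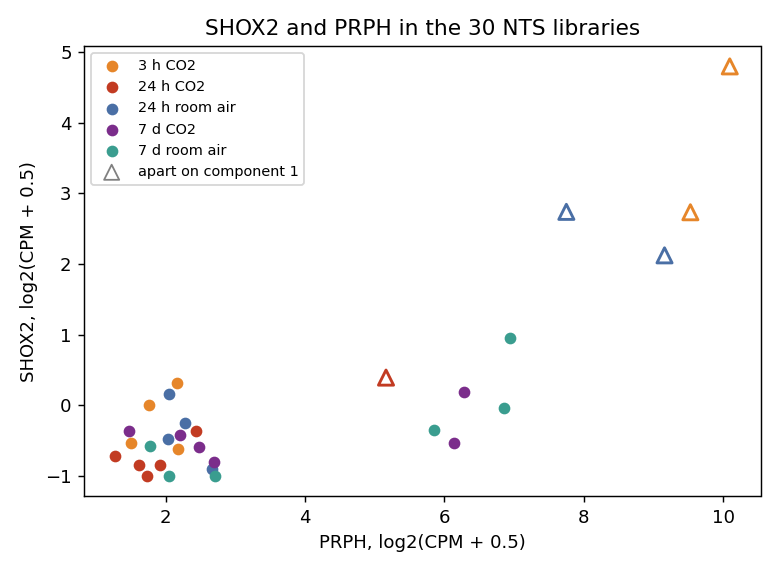
SHOX2 against PRPH in the 30 NTS libraries, both as log2(CPM + 0.5), coloured by exposure; triangles are the 5 libraries that lay apart. A cluster of 20 libraries is low in PRPH, and the 4 libraries of highest SHOX2 are also the 4 of highest PRPH.

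Among the other markers, in the 5 NTS libraries that lay apart and in the other 25, NPFF, a neuropeptide gene, had medians of 9.38 and 0.496 CPM, and GRP, gastrin-releasing peptide, of 20.5 and 1.62 CPM. GABRB2, a subunit of the GABA-A receptor, had medians of 12.1 and 4.48 CPM. OLIG1 had medians of 31.4 and 46.3 CPM, OLIG2 of 8.07 and 12.6, AIF1 of 73.6 and 59.4, TTR of 3.65 and 1.28, HBQ1 of 16.7 and 11.5, and HEMGN of 0.247 and 1.15 CPM. NPFF, GRP, GABRB2, AIF1 and HBQ1 are listed by the authors as lower, and HEMGN as higher, in the NTS after 24 h of CO2. That listing used libraries of both sets. The other 25 also hold 5 libraries of the second batch that are high in PRPH. For each of these other markers the ranges of the 5 and of the 25 overlap. TTR ran from 1.58 to 18.7 CPM in the 5 and from 0.4 to 156 CPM in the 25. GRP ran from 2.39 to 49.9 CPM in the 5 and from 0.152 to 38.3 CPM in the 25. The part of these marker differences in the NTS values of SHOX2 was not tested.

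Likeness to SHOX2 was measured as Pearson's r on the log2 scale over 90 libraries for 14271 genes with a mean of at least 1 CPM, of which 222 carry a symbol. Libraries share their site, goat and batch, so r is a description. The genes of highest r were ENSCHIG00000013900 (0.88) and ENSCHIG00000002616 (0.87), neither with a symbol, and 89 genes had an r of at least 0.7. ENSCHIG00000002616 averaged 2.15, 26 and 142 CPM in the NTS, VRC and RTN, and kept the order of the sites in 30 of 30 goats. Symbols come from the authors' tables of genes called after CO2, so the genes named by symbol are not a neutral set. Like SHOX2, S100A10, DPYSL3, GNG3, TMEM102, TMEM176A, TMEM176B, PRPH, ALKAL2, GRP, NPFF and GABRB2 are listed as lower in the NTS at 24 h. That listing favours a high r with SHOX2 in the NTS. Of the genes with a symbol, S100A10, which pairs with annexin A2, came first with an r of 0.85. DPYSL3, a protein of axon growth, had 0.73, GNG3, a G-protein subunit of neurons, 0.66, and TMEM102 0.64. TMEM176A, a membrane protein, had 0.63 and PRPH 0.62. The lowest were ABHD17B, a depalmitoylase, at -0.40, DLL3, a Notch ligand family member, at -0.38, and ESPN, an actin-bundling protein, at -0.36. ABHD17B is listed as higher in the NTS at 24 h, which favours a negative r with SHOX2 there. ESPN is listed as lower there, like SHOX2, yet had a negative r. DLL3 is listed as higher in the NTS at 7 d.

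**Figure D5:**
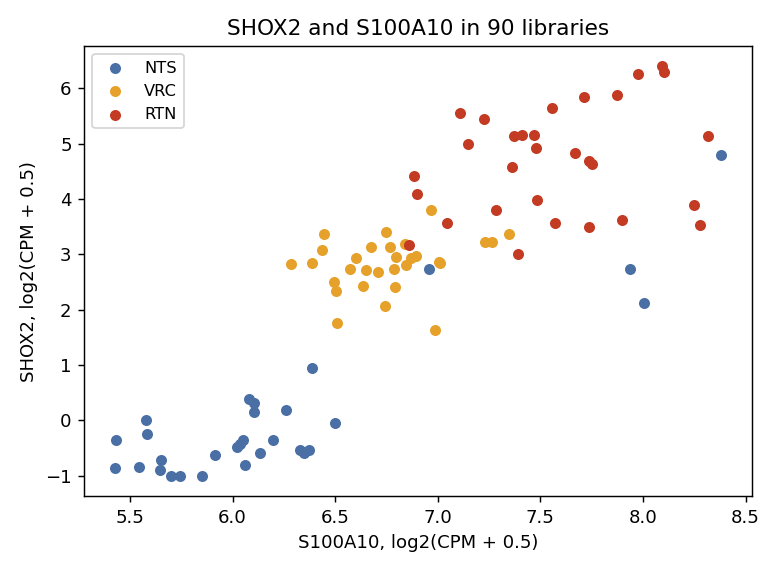
SHOX2 against S100A10 in 90 libraries, both as log2(CPM + 0.5), coloured by site. The sites form 3 clouds with little overlap, and among the NTS points the libraries highest in S100A10 are also those highest in SHOX2.

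S100A10 averaged 86.8 ± 68.2, 110 ± 20.6 and 197 ± 57.8 CPM in the NTS, VRC and RTN (SD over 30 libraries each). Over residuals from the group means, which leave out the differences between sites, r was 0.88 in the NTS, 0.17 in the VRC and -0.07 in the RTN (30 libraries each). It was 0.77 in the NTS without the 5 libraries that lay apart. For PRPH the values were 0.87 in the NTS (0.75 without those 5), -0.31 in the VRC and 0.07 in the RTN. The 25 NTS libraries left still hold 5 of the second batch with PRPH from 57.2 to 122 CPM. The NTS values without the 5 that lay apart thus do not show r outside the libraries high in PRPH. Over the residuals of all 90 libraries the symbols of highest r were TMEM176A (0.73), TMEM176B (0.72) and ALKAL2, a ligand of the ALK receptor (0.62). TMEM176A and TMEM176B are the pair with an r of 0.49 each within the RTN.

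In the RTN, GRP had an r of -0.74 with SHOX2 over the residuals and NPFF -0.48, against 0.61 and 0.89 in the NTS (30 libraries each). Without the 5 NTS libraries that lay apart, over the same 25 as above, the NTS values were 0.45 for GRP and 0.80 for NPFF. GRP lay between 5.42 and 28.9 CPM in the RTN, with a median of 10.2. NPFF was low there, with a median of 0.889 CPM. These signs were noticed after the values were seen and have no test.

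Whether a goat with much SHOX2 at one site had much at another was tested on the residuals from the exposure means, over 3 pairs of sites. For VRC and RTN, Pearson's r was 0.14 and Spearman's rho 0.18 over 30 goats (two-sided permutation test, p = 0.507 and 0.388; p = 0.760 adjusted over the 3 pairs). Without the 2 goats farthest from the median of the VRC, r was 0.42 (permutation p = 0.0254, unadjusted). Within the first batch r was 0.31 over 18 goats and within the second -0.15 over 12 (permutation p = 0.254 and 0.722). Neither value within a batch passed 0.05, and their signs differ. For the NTS, whose libraries fall into clusters, r was taken over 25 goats, without the 5 whose library lay apart. It was -0.29 with the VRC (rho -0.37; permutation p = 0.121 and 0.0707; adjusted p = 0.363) and 0.00 with the RTN (rho -0.08; permutation p = 0.984 and 0.732; adjusted p = 0.984). Without the 2 farthest goats these were -0.45 (permutation p = 0.0373) and -0.04 (p = 0.879). Within the first batch they were -0.18 and -0.48 over 13 goats (permutation p = 0.565 and 0.156), and within the second -0.34 and 0.46 over 12 (p = 0.159 and 0.102). The NTS libraries of these 25 goats held a median of 5 SHOX2 reads. Counting error is thus large there, and the tests could hardly show a link with the NTS.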

How the data were processed

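The authors' deposited table holds raw counts per Ensembl gene for 90 libraries, all mapped by library name. Libraries came from the low-input SMART-Seq v4 kit followed by Nextera XT, per the labels; these do not mark strand. Tools named in the submitters' processing notes are featureCounts 2.0.6, STAR 2.7.10b, fastp 0.24.0 and edgeR 4.6. The genome build is not given in the sources used here. Tables of genes that the authors deposited give log2 fold changes and log2 mean abundances, a likelihood ratio (a score), and p-values, per the file headers. Symbols came from those tables, through a likelihood ratio fit over all libraries (minimum count 5, 17730 genes), which linked 238 symbols. In RefSeq ARS1.2, 0 annotated genes overlap SHOX2.

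The tests ran on the counts, with edgeR 4.0.16 under R 4.3.3 (TMM, filterByExpr, glmQLFit with legacy=FALSE and robust=TRUE, quasi-likelihood F test, Benjamini-Hochberg over all genes tested, threshold 0.05), using the libraries of the same site and batch, 18 or 12. The script was tested on simulated data. Alternatives were DESeq2 1.42.0, limma 3.58.1 voom with quality weights, RLE factors, no filter, 1 CPM in 6 libraries, other sets of libraries, the replicate number as a block, exact permutation and leaving out each library. Genes named for likeness are the 6 of highest and 3 of lowest r with a symbol, the 3 of highest residual r, and the 2 of highest r of any kind. The members and lists were chosen with earlier results of these data known.

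The labels give no goat identifiers, and libraries of 1 exposure with the same number are read as 3 sites of 1 goat, which rests on the data: genome-wide residuals of a goat correlated best with those of its own number in 27, 23 and 28 of 30 goats for NTS with VRC, NTS with RTN and VRC with RTN. Between exposures the goats are different animals. In the NTS at 3 h all 6 same-numbered pairs still correlated above 0.1 (lowest 0.181). In the other comparisons 1 to 4 of 6 did. Within a group p-values measure the spread between goats.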

Additional observations from a re-analysis of the deposited data

Results flagged for a closer look

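A gap to the nearest of the other 5 libraries that was wide for the range of the group picked out 4 SHOX2 values, all in the NTS and each the highest of its group. For normally distributed values chance picks about 1 group in 20, a rate that does not hold for skewed groups of few reads such as these, and the second group listed was used to choose the gene. They were 27.3 CPM in number 6 after 3 h of CO2 (nearest 6.14), 0.811 CPM in number 5 after 24 h of CO2 (nearest 0.280), 0.638 CPM in number 4 after 7 d of CO2 (nearest 0.280) and 1.44 CPM in number 1 of 7 d room air (nearest 0.471). All 4 libraries are among the 10 of the NTS with PRPH above 35 CPM, and the last 3 rest on 43 SHOX2 reads or fewer. The part of the punch's makeup in these values was not tested.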

How the results depend on the processing

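No SHOX2 effect of CO2 in the VRC or RTN passed an adjusted p of 0.05 in any alternative fit. None passed an unadjusted p of 0.05 in the exact permutation test. Unadjusted p-values of the alternative fits are not given here. Leaving out each library moved the log2 fold change from -0.25 to 2.73 in the NTS at 3 h, -4.10 to -1.88 in the NTS at 24 h, 0.10 (without number 6 of CO2) to 0.41 (without number 4 of room air) in the VRC at 3 h, -0.09 to 0.15 in the VRC at 24 h, -0.50 (without number 1 of CO2) to -0.10 (without number 3 of CO2) in the VRC at 7 d, 0.22 (without number 5 of CO2) to 0.63 in the RTN at 3 h, -0.35 to 0.21 in the RTN at 24 h, and -0.66 (without number 4 of CO2) to -0.19 (without number 3 of CO2) in the RTN at 7 d. In the NTS at 24 h it was -1.33 by limma voom, -1.37 without the 5 libraries that lay apart and -1.13 as a difference of mean log2(CPM + 0.5). Values near 0 changed sign: the VRC at 24 h gave 0.00 with no filter, -0.10 by voom, -0.01 over all 90 libraries and -0.02 by permutation, and the RTN at 24 h gave -0.06 by voom, -0.05 with the replicate block and -0.12 by permutation. The cause was not tested. With the replicate block the NTS at 3 h gave 1.25 (SE 0.45) and at 24 h -3.21 (SE 0.7), both described without a test. In the VRC and RTN the block changed no call of SHOX2. The correlation of VRC and RTN was 0.42 without the 2 farthest goats and -0.15 in the second batch, that of NTS and VRC -0.45 without the 2 farthest, and that of NTS and RTN 0.46 in the second batch and 0.01 with a pseudocount of 2. Scaling by RLE or by library size alone moved none of the 15 group means beyond 1 SD. The filter of 1 CPM left SHOX2 out in the NTS, as did the fit of the compared groups alone at 24 h. In the NTS at 7 d the gene entered the fit only with no filter and over all 90 libraries (-0.63 in both), so libraries were not left out there.

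Counts of genes called depended on the tool: over the settings of the fit they ran from 0 to 12, 0 to 273 and 0 to 75 in the NTS at 3 h, 24 h and 7 d (edgeR 0, 0 and 1), from 2 to 121, 113 to 274 and 0 to 2 in the VRC (edgeR 2, 126 and 0), and from 0 to 17, 0 to 9 and 0 to 2 in the RTN (edgeR 2, 0 and 0). In the NTS 20 of 30 libraries held fewer than 10 SHOX2 reads, which limits the precision of its values.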
